A study of Mus musculus with 34 samples.

Results

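The genes encoding the bone morphogenetic protein (BMP) and transforming growth factor-β (TGF-β) pathways were followed through the accessible chromatin of mouse hair follicle stem cells (HFSCs). The list held 39 of the 21757 protein-coding genes of the annotation: 10 ligands, 10 receptors, 6 receptor-regulated and common SMADs, 2 inhibitory SMADs, 7 extracellular regulators and 4 ID targets. A gene was represented by the peaks whose summit lay in its window, that is, its body with 50 kb before its start and 5 kb after its end. The assay was ATAC-seq, in which the transposase Tn5 inserts adaptors into open DNA, and the data were the peak lists of 34 libraries in 11 groups, with no read counts.

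In vivo, HFSCs were sorted from mouse skin at the end of growth (AnaVI wild type, n = 2) and in late regression (CatVII), from wild type mice (n = 6) and from mice called Rxra WT (n = 4) or Rxra cKO (n = 3). The labels give no alleles for the Rxra WT mice, and the study's descriptions differ. For the sort that fed ATAC-seq they are described as Rxra +/+ and, like the cKO mice, Cre-positive with a YFP allele, whereas elsewhere Rxra WT stands for floxed mice without Cre, and the general methods also admit Rxra fl/+ mice with Cre as controls. The cKO mice were Rxra fl/fl and R26-YFP fl/+ with Sox9-creER+, so that tamoxifen, given to all of these mice, deletes the gene for the nuclear receptor RXRα in cells that express Sox9. In culture, an Rxra WT line (Rxra +/+ with Sox9-creER+ and R26-YFP fl/fl) and a cKO line (Rxra fl/fl with the same Cre and reporter) were used, both treated with 4-hydroxytamoxifen and sorted for YFP, and both grown on 3T3/J2 fibroblast feeders. Of the 3 CatVII Rxra cKO libraries, replicates 2 and 3 carry the same animal tag, m2, in their stored peak names. Their labels read m2 and m3, but they may come from 1 mouse. Replicate 3 is the only library of that comparison with a Phago tag. The labels do not give this tag, which also splits other groups. CatVII wild type replicates 1 to 3 carry Phago, numbered 1 to 3, and replicates 4 to 6 carry NonPhago, also numbered 1 to 3. The labels do not say whether equal numbers mark the same animal, so these 6 libraries may come from fewer than 6 mice. The tests treated them as separate. With untreated and BEL-treated corpses in Rxra WT, replicates 1 and 2 carry NonPhago and 3 and 4 Phago. With corpses in Rxra cKO, replicate 3 carries Phago and the others NonPhago. The part of this tag was not tested. In skin, the stored names also hold P33 in both AnaVI libraries and P37 in the CatVII wild type libraries. They hold P37 in Rxra WT replicates 2 to 4 and P42 in Rxra WT replicate 1 and all cKO libraries. The study uses P for postnatal day, so these tags may be ages, which the labels do not give. If so, age differed between AnaVI and CatVII and, for most Rxra WT libraries, between the genotypes. In culture, medium was given to Rxra WT (n = 2) and Rxra cKO cells (n = 2). Apoptotic corpses of HFSCs killed with cisplatin were given to Rxra WT (n = 4) and Rxra cKO cells (n = 3). Corpses treated with bromoenol lactone, an inhibitor of calcium-independent phospholipase A2, were given to Rxra WT cells (BEL-treated corpses Rxra WT, n = 4). The lipids arachidonic acid and lysophosphatidylcholine were given together with retinoic acid (AA+LPC+RA) to Rxra WT (n = 2) and Rxra cKO cells (n = 2). Nothing in the labels states that replicates of a culture group came from separate cultures, so the p-values measure the spread between these libraries, which may be technical.

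BMP and TGF-β ligands bind paired type I and type II receptor kinases. Activated type I receptors phosphorylate SMAD1, SMAD5 and SMAD9 on the BMP side or SMAD2 and SMAD3 on the TGF-β side, and these enter the nucleus with SMAD4, where the ID genes are classical BMP targets and SMAD6 and SMAD7 feed back to block the receptors. In the hair follicle, BMP signals hold bulge stem cells in quiescence, and BMP inhibitors and TGF-β2 from the dermal papilla counter them when a new cycle starts.

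The 34 lists held 1935055 peaks, from 4144 to 129876 per library, and 7716 peaks (0.4%) had their summit in a window of these 39 genes. The medium groups held the fewest, 4144 to 5740 peaks per library, against 72225 to 129876 with untreated corpses. With no read counts, sequencing depth, library quality and openness cannot be told apart behind these totals. Lists of equal length were compared, ranked by the caller's −log10 p, so that rank 1 was the strongest peak of a library. Of the HFSC markers, the promoters of Itga6 and Foxc1 held a called peak in 30 of the 30 libraries outside medium, Sox9 in 28 and Cd34 in 8. Promoters of other cell types were open too. Per library, 0 to 3 of 7 fibroblast, 0 to 3 of 7 immune and 1 to 4 of 6 melanocyte markers held a called peak, among them Pdgfra and Col1a1 (24 libraries each), Cd68 (21), Csf1r (15), Mitf and Pmel (28 each) and Dct (19). So did 0 to 4 of 4 endothelial markers, with Tek in 20 libraries and Pecam1 in 14, and 0 to 4 of 4 markers of differentiated epidermis, with Sbsn in 26, Ivl in 25 and Krt10 in 24. Other genes of these lists, Col3a1, Dpt, Lum, Ptprc, Cd3e, Cd3g, Sox10 and Tyr, held none. The part of other cells in the results was not tested.

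Most members had an open promoter in the full lists. A promoter peak, within 1 kb of an annotated start, was called on average in 23.5 of these 30 libraries for the members and in 16.0 for all genes. It was called in every one for Tgfbr1 and Smad2 (2 of 39 members, against 9.1% of all genes). It was called in none for Bmp5 (1 of 39, against 25.4%). In lists cut to the 8223 strongest peaks of each library, the difference narrowed to a mean of 7.33 libraries for the members and 6.99 for all genes. In these lists 11 of 39 members had no promoter peak in any library, against 51.3% of all genes. In all 30 libraries 0 members had one, against 2.54%. No p was attached to these counts because the genes had been chosen with results of these data known.

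The best-ranked promoter of each role was taken by its median rank over the 30 libraries, a library without a call counting as last. Among the ligands it was that of Bmp7, an epithelial BMP, with a median rank of 1647 (best 86) and a peak in 28 of 30 libraries. Among the receptors it was that of Tgfbr1, the type I receptor for TGF-β, with ranks from 544 to 10075 and a median of 2288. Smad2, which carries the TGF-β signal, led the SMADs (ranks 813 to 13909, median 4088), Smad7 the inhibitory SMADs (median 13794.5), Ltbp1, which stores latent TGF-β in the matrix, the extracellular regulators (median 11540) and Id2, a dominant-negative helix-loop-helix factor, the ID targets (median 3245.5, best 645). The Tgfbr1 and Id2 promoters each stood in the list of 8223 in 28 of 30 libraries, as far as any region of these genes reached. At the other end, the promoter of Gdf10 was called in 5 libraries and that of Grem1, a secreted BMP antagonist, in 4. The Tgfbr1 promoter is shown because it was open in every library outside medium. The 200 bases lie at chr4:47352934-47353133 (GRCm39, plus strand), just upstream of the first exon, and the capitals mark the GC-rich site GGCGCC described for SMAD1 and SMAD5.
Tgfbr1 promoter: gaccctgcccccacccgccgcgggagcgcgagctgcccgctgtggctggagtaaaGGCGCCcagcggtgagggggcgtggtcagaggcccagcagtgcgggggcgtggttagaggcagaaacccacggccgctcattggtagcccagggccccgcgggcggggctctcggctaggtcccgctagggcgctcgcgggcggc

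In the lists of 8223, 140 regions lay in member windows, and 100 of them were found in at least 2 libraries. These comprised 36 upstream of the gene, 29 in introns, 27 at promoters, 7 downstream and 1 in a UTR, and for 80 the nearest start was the member's own. None was present in all 30 libraries, against 2.26% of the 23152 regions over all genes. The most widely shared distal sites were one downstream of Acvrl1, the type I receptor known for its role in vessels, at chr15:101043255-101043933, one 33162 bp upstream of Id4 (26 libraries each), and one 47819 bp upstream of Tgfbr2, the type II TGF-β receptor (25 libraries). Tgfbr2 was the member with a listed peak in its window in all 30 libraries (2.56% of members, against 9.01% of all genes), whereas Gdf10, Nog and Fst had none in any (7.69%, against 23.2%). Per library, the windows held 24.5 ± 2.12 listed peaks in AnaVI wild type (SD, n = 2), 27.0 ± 2.76 in CatVII wild type (n = 6), 30.0 ± 1.83 in CatVII Rxra WT (n = 4) and 32.7 ± 3.06 in CatVII Rxra cKO (n = 3). In culture they held 30.2 ± 6.4 with corpses, 28.7 ± 2.52 with corpses in Rxra cKO, 30.8 ± 2.36 with BEL-treated corpses, 36.0 ± 0.0 with AA+LPC+RA and 34.5 ± 0.707 with AA+LPC+RA in Rxra cKO. In the 4111 strongest peaks, the length that also takes in medium, the windows held 8 to 12 peaks in medium Rxra WT, 7 to 16 in medium Rxra cKO and 11 to 15 with corpses.

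**Figure D1:**
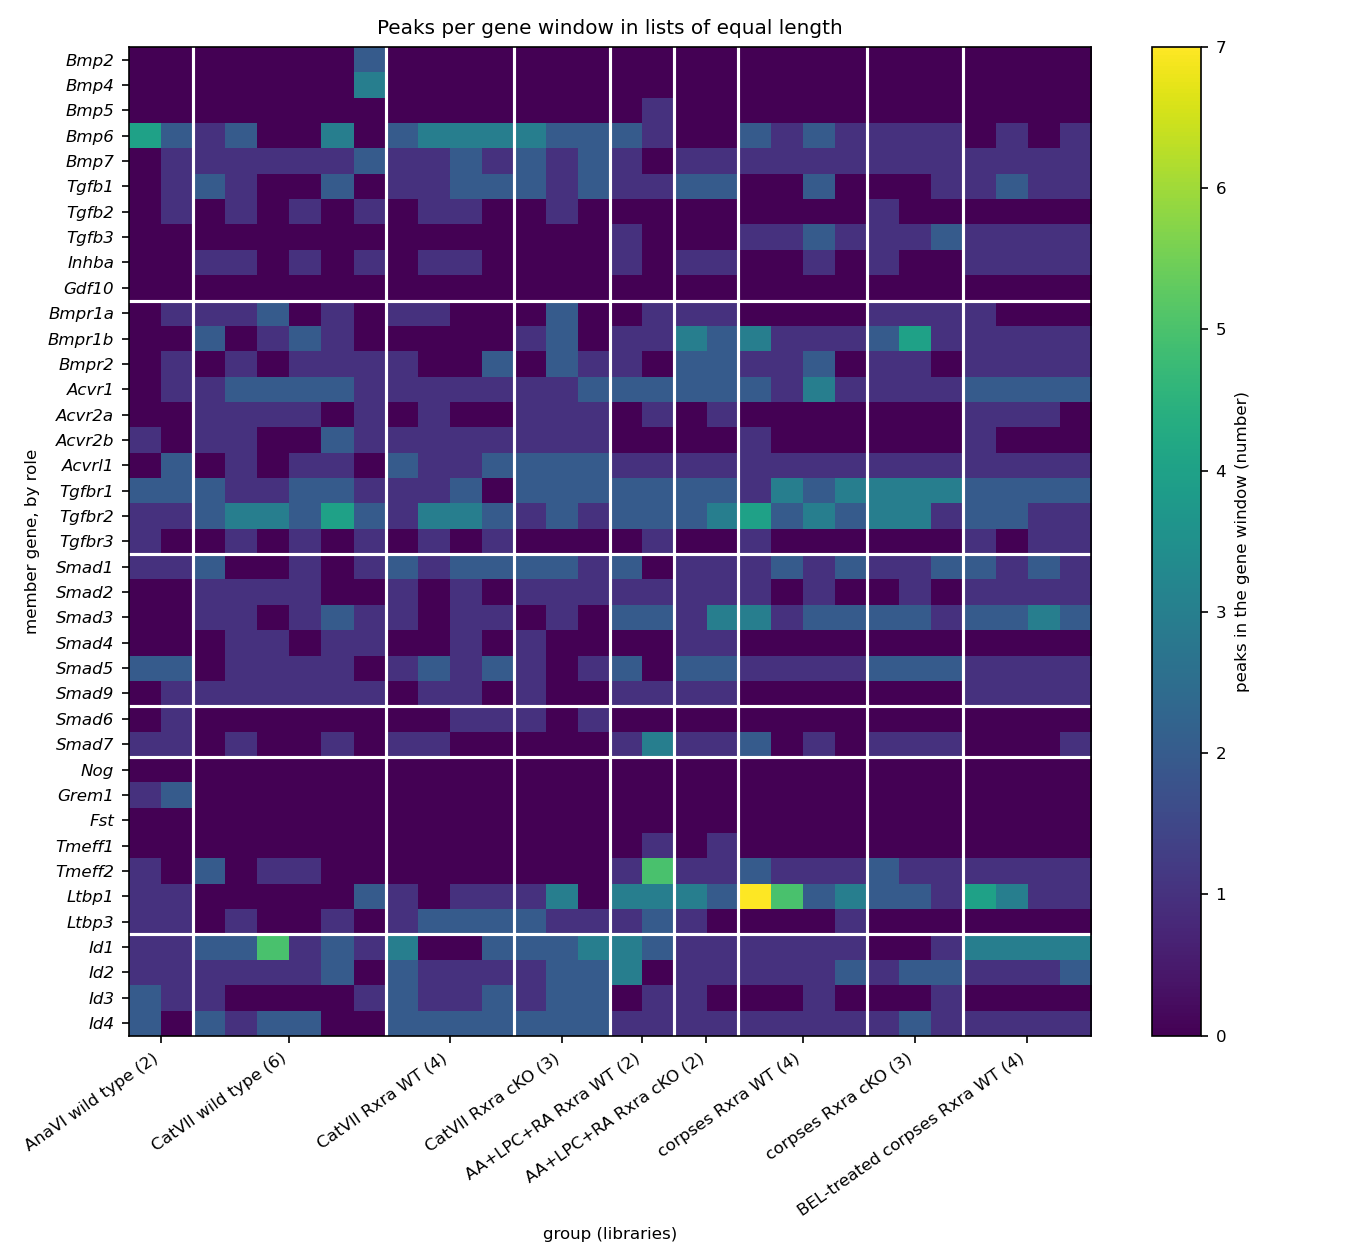
Peaks in the window of each of the 39 genes (rows, by role) in each of the 30 libraries outside medium (columns, by group with its number of libraries), in lists of the 8223 strongest peaks; the colour is the number of peaks. Tgfbr2 has at least 1 peak in every column, Gdf10, Nog and Fst have none, and CatVII wild type replicate 6 is the only library with listed peaks for Bmp2 (2 peaks) and Bmp4 (3 peaks).

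As a description, 7 short motifs were searched on both strands in the 200 bases around the summit of the 100 shared regions and of all 23152. The AP-1 motif TGANTCA was in 38.0% of member regions and 28.7% of all, the GC-rich site GGCGCC in 15% and 8.47%, the TEAD motif GGAATG in 19% and 14.8%, and the RUNX motif TGTGGT in 14.0% and 16.1%. The nuclear receptor motif AGGTCA was in 8.0% and 9.0%, the LIM homeodomain motif TAATTA in 3.0% and 4.03%, and the palindromic SMAD box GTCTAGAC in 1.0% and 0.298%. These are matches of letters, and no binding was measured. No listed motif contains another, although matches can overlap in the sequence. The median GC content of the same stretches was 55.0% and 53.0%.

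Cultured HFSCs were also set beside HFSCs in vivo. At a list length of 41317, which 9 libraries from skin and 14 from culture reached, the windows of Acvr1 and Ltbp1 held more peaks in every cultured library than in any library from skin (2 of 39 members, against 3.74% of all genes), and that of Fst held fewer (1 of 39, against 2.03%). Acvr1 encodes a type I receptor for BMPs and activins. Its window held 4 to 8 peaks in vivo (median 7.0) and 10 to 14 in culture (median 12.5). The Ltbp1 window held 7 to 12 peaks in vivo (median 9.0) and 14 to 19 in culture (median 15). Fst encodes follistatin, which traps activin, and its window held 3 to 5 peaks in vivo (median 4.0) and 0 to 2 in culture (median 0.5). In these lists the Fst window was empty in all 7 cultured libraries that had received untreated corpses. It held 1 or 2 peaks in each of the 4 with BEL-treated corpses and the 3 with AA+LPC+RA. The Fst promoter was called in all 7 libraries with untreated corpses, but past the end of the list, at ranks 43185 to 81618. This split by treatment was picked after the values were seen, and its share over all genes was not computed. The shares given above for culture and skin are near those of all genes. In lists of 0.5 times the length, 1 member still had more peaks in culture and 0 had fewer, and in the 8223 strongest peaks of all 30 libraries there were 0 of either. This contrast was drawn after the values were seen and carries no test. The cultured lines were derived from mice in telogen, the resting phase, and passaged, whereas the libraries from skin were AnaVI or CatVII. Culture, passage, feeder cells, hair cycle stage and the barcoding batch, which all cultured samples shared, cannot be told apart.

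**Figure D2:**
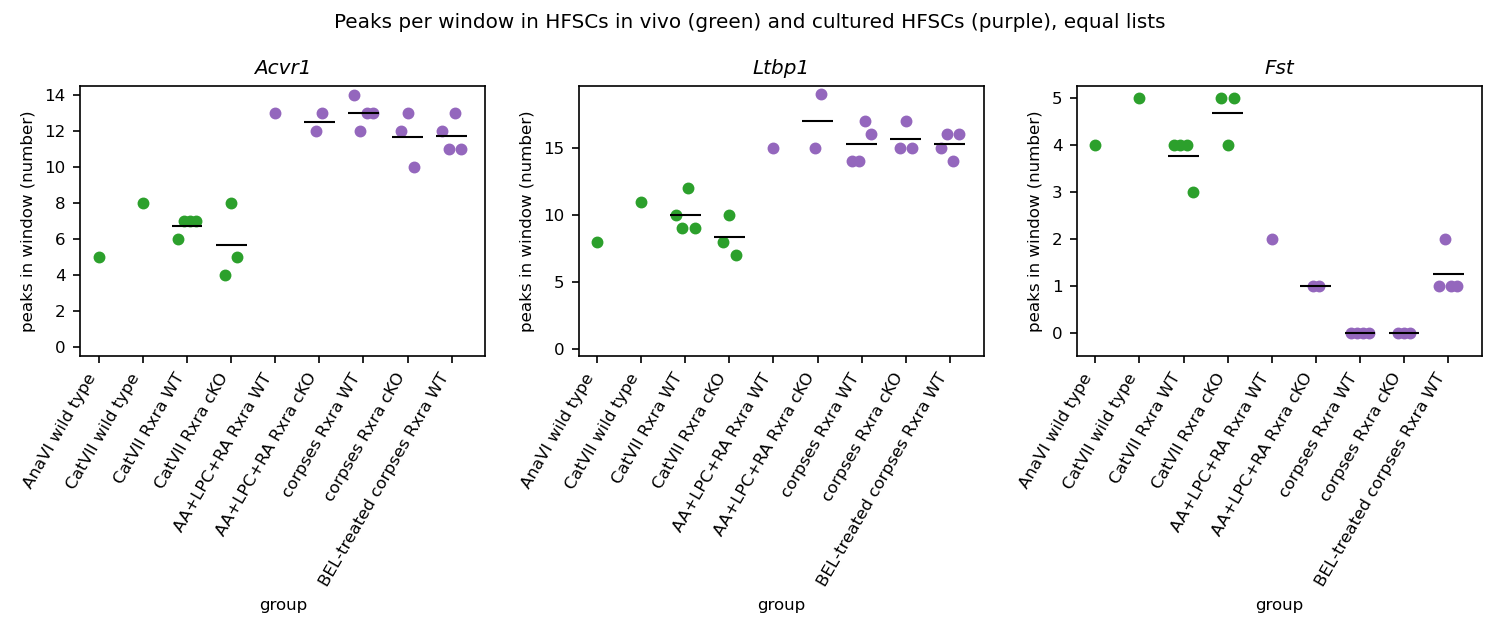
Peaks in the windows of Acvr1, Ltbp1 and Fst (number) in each library, by group, in lists of the 41317 strongest peaks; green points are HFSCs in vivo, purple points cultured HFSCs, and bars are group means where a group has more than 1 library. The 14 cultured libraries lie above all 9 libraries from skin for Acvr1 and Ltbp1 and below them for Fst.

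The 5 comparisons of the design were made region by region. A region was specific to a group when every library of that group had a peak there and no library of the other did, in lists of equal length. Over the 5 comparisons, member windows gave 42 such calls. Several of these regions lay inside another gene. Being specific is a statement about rank, because many of these regions had a called peak below the end of the list in some library of the other group. The numbers of peaks per window were compared by an exact permutation test over the libraries, two-sided. No gene passed an adjusted p of 0.05 by the Benjamini-Hochberg procedure over all genes with a listed peak in any comparison, and the smallest adjusted values were between 0.396 and 0.759. Gene calls below are therefore at an unadjusted p under 0.05, beside the share of all genes so called. The corpses Rxra WT libraries served in 3 of the comparisons, which are not independent.

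**Figure D3:**
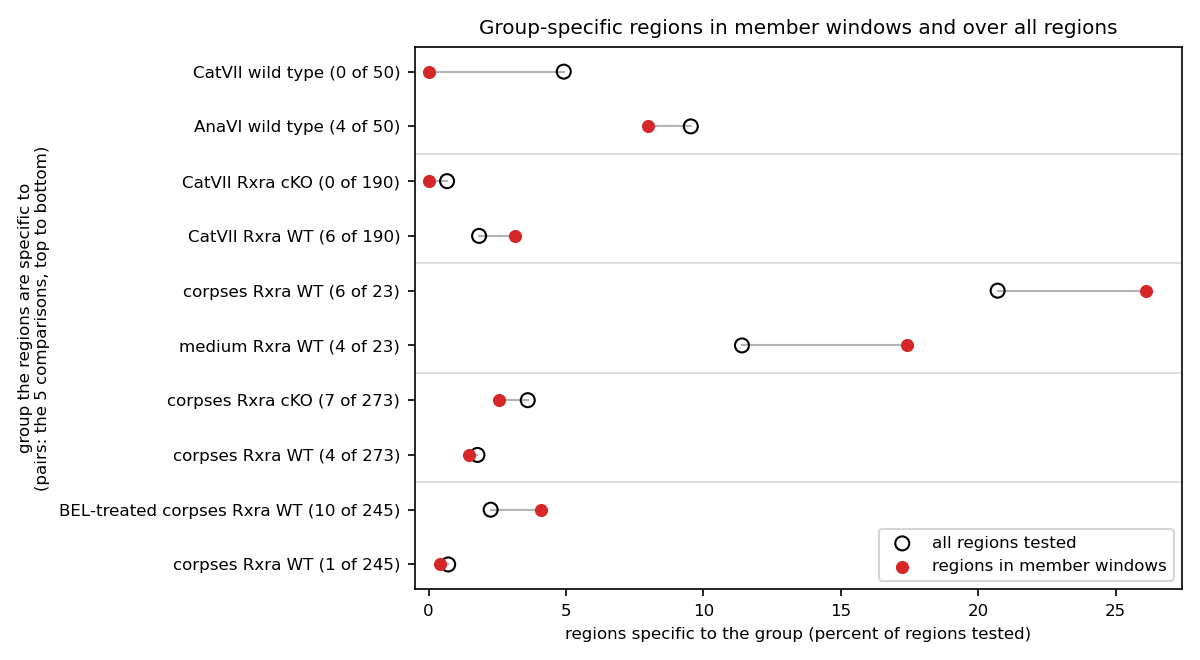
Regions specific to a group, as a percent of the regions tested, in member windows (red, with the number called of the number tested in brackets) and over all regions (open circles), for both groups of each of the 5 comparisons. The largest departures are in the comparisons with few member regions, 50 in CatVII with AnaVI wild type and 23 in corpses with medium.

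The comparison of CatVII with AnaVI wild type asks what changes when the follicle enters regression. Of 50 member regions tested, 0 were specific to CatVII (4.92% of all regions were) and 4, or 8.0%, to AnaVI (9.54%). The 4 AnaVI regions lay in an intron of Smad5, which carries BMP signals, 36718 bp upstream of Grem1 and inside Scg5, at the Ltbp1 promoter, and 27036 bp upstream of Ltbp3 and inside Ehbp1l1. Each had a called peak below the list in at least 1 of the 6 CatVII libraries, in 3 of 6 at the Ltbp1 promoter, where the best such rank was 8642. The Smad5 site (chr13:56859862-56860217) had the best median rank, 4062.0, and its centre at chr13:56859942-56860141 holds 1 AP-1 match, shown in capitals.
Smad5 intron: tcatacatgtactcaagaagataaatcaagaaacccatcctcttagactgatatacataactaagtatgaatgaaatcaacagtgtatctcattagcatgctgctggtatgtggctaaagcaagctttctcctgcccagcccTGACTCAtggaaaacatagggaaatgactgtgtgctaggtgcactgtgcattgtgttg

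The Smad5 window held 2 peaks in both AnaVI libraries and 0, 1, 1, 1, 1 and 0 in CatVII, with no overlap (exact permutation p = 0.0714). The Grem1 window held 1 and 2 peaks in AnaVI and 0 in each of the 6 CatVII libraries (exact permutation p = 0.0357, the smallest that 28 splits allow, adjusted p = 0.399). The difference was 0.0 with windows from 10 kb upstream and had an exact permutation p of 0.25 in lists of 0.5 times the length. In the other direction, the Tgfbr2 window held 2, 3, 3, 2, 4 and 2 peaks in CatVII and 1 and 1 in AnaVI (exact permutation p = 0.107). By absence of overlap alone, 2 of 33 members tested were lower in CatVII (5.28% of all genes) and 1 was higher (4.9%). Grem1 was the single member with fewer peaks in CatVII at a p under 0.05 (4.88% of all genes were) and 0 members had more (4.06%). The Ltbp3 window held 1 and 1 in AnaVI and at most 1 in CatVII, and that of Ltbp1 held 1 and 1 in AnaVI and 0 in CatVII except for replicate 6, which held 2. That replicate also held the listed peaks of Bmp2 and Bmp4, ligands that keep bulge cells quiescent, with promoter ranks of 4524 and 4470. The median difference over members was 0.167 peaks, as over all genes. The shortest peak of a list, by the caller's default the fragment length it estimated, ran from 126 to 150 bp over the CatVII libraries, against 58 and 89 bp for the AnaVI libraries. AnaVI-specific regions over the genome had a median width of 349 bp and lay within 1 kb of a start in 12.0%, CatVII-specific ones 1070 bp and 78.0%. The part of fragment length in these calls was not tested.

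The comparison of CatVII Rxra cKO with Rxra WT asks what the loss of the receptor changes in catagen. Of 190 member regions tested, 6 (3.16%) were specific to CatVII Rxra WT, where 1.84% of all regions were, and 0 to CatVII Rxra cKO, where 0.675% were. They lay in introns of Bmp7, Tgfbr3, Smad1, Smad3 and Ltbp1, and 31798 bp upstream of Tgfb3 inside Ift43. Those of Smad3 (chr9:63567284-63568029) and Tgfb3 (chr12:86157653-86158622) had no called peak at all in the 3 cKO libraries. The Bmp7 site, at chr2:172769284-172769807, had the best median rank (20226.0) and a called peak in 1 cKO library at rank 109021. The 200 bases around its summit, chr2:172769515-172769714, hold none of the searched motifs.
Bmp7 intron: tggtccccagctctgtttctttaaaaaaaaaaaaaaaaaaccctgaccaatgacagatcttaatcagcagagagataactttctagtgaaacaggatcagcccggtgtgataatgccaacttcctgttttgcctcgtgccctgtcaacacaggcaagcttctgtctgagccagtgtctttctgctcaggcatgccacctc

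The window of Tgfbr3, which encodes betaglycan, a co-receptor that presents TGF-β2, held 6, 6 and 4 peaks in cKO and 7, 14, 13 and 17 in Rxra WT. The groups did not overlap, with means of 5.33 ± 1.15 and 12.8 ± 4.19 (SD), but the exact permutation p was 0.0571 and the adjusted p 0.759. Tgfbr3 was the 1 of 38 members whose groups did not overlap with fewer peaks in cKO (3.68% of all genes), and 0 did with more (1.1%). The Bmp7 window held 2, 3 and 3 peaks in cKO and 3, 6, 7 and 6 in Rxra WT. The Smad1 window held 4, 6 and 6 in cKO against 5, 9, 9 and 9, and the Smad3 window 5, 12 and 9 against 7, 16, 13 and 12. For these 4 genes the lowest Rxra WT library was replicate 1. Its stored peak names carry the tag P42, as those of all 3 cKO libraries do. The other Rxra WT libraries carry P37, as the CatVII wild type libraries do. They are numbered NonPhago 4 to 6, where CatVII wild type replicates 4 to 6 are numbered NonPhago 1 to 3. The Tgfb3 window held 8, 6 and 6 against 9, 7, 10 and 8 and the Ltbp1 window 8, 10 and 7 against 10, 9, 12 and 9, so that the groups overlapped for these genes, as they did for Smad1 and Smad3. No member passed an unadjusted exact p of 0.05 in either direction, where 0.963% of all genes had more peaks in cKO and 2.69% had fewer. The median difference was −0.208 peaks over members and −0.167 over all genes. With the P42 libraries alone, 1 Rxra WT against 3 cKO, 27 of 289 member regions (9.34%) were specific to Rxra WT, where 8.57% of all regions were, and 9 (3.11%) to cKO, where 2.25% were, with an arm of a single library. The tag and the genotype cannot be told apart for the other 3 Rxra WT libraries.

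Corpses were compared with medium in cultured Rxra WT HFSCs, at a list length of 4812, that of the smaller medium library. Of 23 member regions, 6 (26.1%) were specific to corpses, against 20.7% of all regions, and 4 (17.4%) to medium, against 11.4%. The 6 corpse regions were of unique sequence, and their ranks were within 4812 by construction. They comprised the Bmp7 promoter (median rank 753.5), the site downstream of Acvrl1 (537.0), introns of Acvr1 (2841.5), Smad3 (1431.5) and Tmeff2, which encodes a membrane protein with follistatin domains (723.0), and a site 42104 bp upstream of Tgfbr1 inside Col15a1 (1411.0). None had a called peak in either medium library, although those libraries held few peaks. The shortest peak was 207 and 195 bp in the medium libraries and 60 to 104 bp in the 4 corpse libraries. Over the genome, 32.9% of corpse-specific and 8.95% of medium-specific regions lay within 1 kb of a start, against 39.6% of regions tested. The part of fragment length in these calls was not tested. The Acvrl1 site had the best rank, and the stretch at chr15:101043442-101043641 holds 1 RUNX match, shown in capitals.
Acvrl1 downstream: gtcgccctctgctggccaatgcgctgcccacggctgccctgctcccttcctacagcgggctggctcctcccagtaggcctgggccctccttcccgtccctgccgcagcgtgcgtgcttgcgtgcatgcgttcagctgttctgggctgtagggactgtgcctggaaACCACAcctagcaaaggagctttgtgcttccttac

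The 4 medium regions lay in introns of Acvr1, Tmeff2 and Ltbp1 and downstream of Smad5. That of Acvr1 had a called peak below the list in 3 of 4 corpse libraries, the best at rank 43637, and the others in 0. All 4 were made of repeated sequence. Of the 25-base words in them, 89.6% (Acvr1), 97.3% (Smad5) and all of those at Tmeff2 and Ltbp1 occurred more than once in the genome, with a median of 129 copies at Acvr1, 14 at Smad5, 6480.0 at Tmeff2 and 14 at Ltbp1. In the 6 corpse regions 0.0% did. The same shares over all medium-specific and corpse-specific regions were not computed, so this contrast cannot be called particular to these genes. The Smad5 site is shown to make the repeats visible, at chr13:56893087-56893286, where CA repeats alternate with a unit that recurs within the stretch.
Smad5 downstream: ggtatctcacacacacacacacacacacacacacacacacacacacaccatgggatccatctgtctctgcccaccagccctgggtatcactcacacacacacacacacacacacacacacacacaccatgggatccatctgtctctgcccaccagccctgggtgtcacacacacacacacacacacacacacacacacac

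The windows of Bmp7 and Acvrl1 each held 1 peak in the 4 corpse libraries and 0 in both medium libraries, and the Tgfbr1 window held 1, 2, 2 and 3 against 0 and 0. The Smad3 window held 2, 1, 2 and 1 against 0 and 0, and the Tgfbr2 window 2, 2, 1 and 1 against 0 and 0. These 5 of 25 members tested (20%) had more peaks in every corpse library, as 12.9% of all genes did. The Tmeff2 window held 1 in each corpse library and 2 and 5 in medium, and that of Smad5 0 in each and 1 and 1. These 2 members (8.0%) had fewer peaks in every corpse library, as 4.88% of all genes did. The groups overlapped for Acvr1 and Ltbp1, where the window of Acvr1 held 2, 1, 1 and 1 against 2 and 1 and that of Ltbp1 3, 2, 0 and 1 against 1 and 2. With 15 splits the exact test cannot go below p = 0.0667, so that no call was possible at this size. The median difference was 0.25 peaks over members and over all genes.

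Rxra cKO and Rxra WT HFSCs were then compared with corpses present. Of 273 member regions, 7 (2.56%) were specific to cKO, against 3.61% of all regions, and 4 (1.47%) to Rxra WT, against 1.78%. The cKO regions lay in introns of Bmp6, Smad3 and Ltbp1, at the Acvrl1 promoter, in the untranslated part of Tgfbr2, 11489 bp upstream of Id3 and 29462 bp upstream of Bmpr1a inside Ldb3. Each of the 7 had a called peak below the list in 1 or 2 of the 4 Rxra WT libraries. The Rxra WT regions comprised an intron of Bmpr2, the type II BMP receptor, a site 33670 bp upstream of it, an intron of Tgfbr3 and the Ltbp3 promoter. Each of these had a called peak in 1 or 2 of the 3 cKO libraries. The best-ranked site in each direction is shown, the Smad3 intron at chr9:63606239-63606438 with 1 TEAD match and the Bmpr2 intron at chr1:59842246-59842445 with 1 RUNX match in capitals.
Smad3 intron: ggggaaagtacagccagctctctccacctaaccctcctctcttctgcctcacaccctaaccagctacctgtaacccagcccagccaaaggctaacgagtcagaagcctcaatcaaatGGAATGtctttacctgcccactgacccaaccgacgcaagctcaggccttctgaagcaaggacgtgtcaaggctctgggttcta
Bmpr2 intron: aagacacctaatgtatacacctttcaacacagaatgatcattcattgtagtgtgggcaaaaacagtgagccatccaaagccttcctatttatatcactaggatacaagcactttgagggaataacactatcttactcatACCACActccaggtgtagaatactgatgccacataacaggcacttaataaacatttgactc

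The Smad1 window held 4, 4 and 4 peaks in cKO and 7, 7, 7 and 6 in Rxra WT. The Ltbp3 window held 8, 7 and 8 in cKO and 9, 10, 10 and 10 in Rxra WT. The groups did not overlap for these 2 genes, and each had an exact permutation p of 0.0286, the smallest that 35 splits allow, and an adjusted p of 0.415. Smad1 transmits BMP signals, and Ltbp3 binds latent TGF-β. With all called peaks, as a share of each library, the exact permutation p was 0.0857 for Smad1 and 0.0571 for Ltbp3, and in lists of 0.5 times the length 0.143 and 1.0. With windows from 10 kb upstream, neither gene was called. In the main setting, Smad1 and Ltbp3 were the members with fewer peaks in cKO (2 of 38 tested, where 3.57% of all genes were so called), and 0 members had more (3.3%). By absence of overlap, 4.93% of all genes were lower and 3.67% higher, with the same counts of members. The Bmp6 window held 10, 8 and 10 against 5, 6, 9 and 9, and the Bmpr1a window 5, 11 and 9 against 6, 5, 7 and 7. The Acvrl1 window held 6, 5 and 8 against 6, 6, 6 and 6, and the Tgfbr2 window 10, 8 and 9 against 9, 9, 11 and 10. In all 4 the groups overlapped. The Smad3 window held 16, 15 and 17 against 12, 16, 14 and 19, the Ltbp1 window 27, 23 and 26 against 22, 21, 24 and 26, and the Id3 window 9, 9 and 8 against 8, 7, 6 and 8. The Bmpr2 window held 9, 6 and 8 against 13, 9, 8 and 8, and the Tgfbr3 window 10, 10 and 8 against 12, 15, 11 and 10. These too overlapped. The median difference was −0.458 peaks over members and −0.25 over all genes. In catagen, the same genotypes gave Smad1 4, 6 and 6 in cKO against 5, 9, 9 and 9, and Ltbp3 8, 6 and 10 against 8, 7, 7 and 9, both overlapping. Whether the difference itself differed between skin and culture was not tested.

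**Figure D4:**
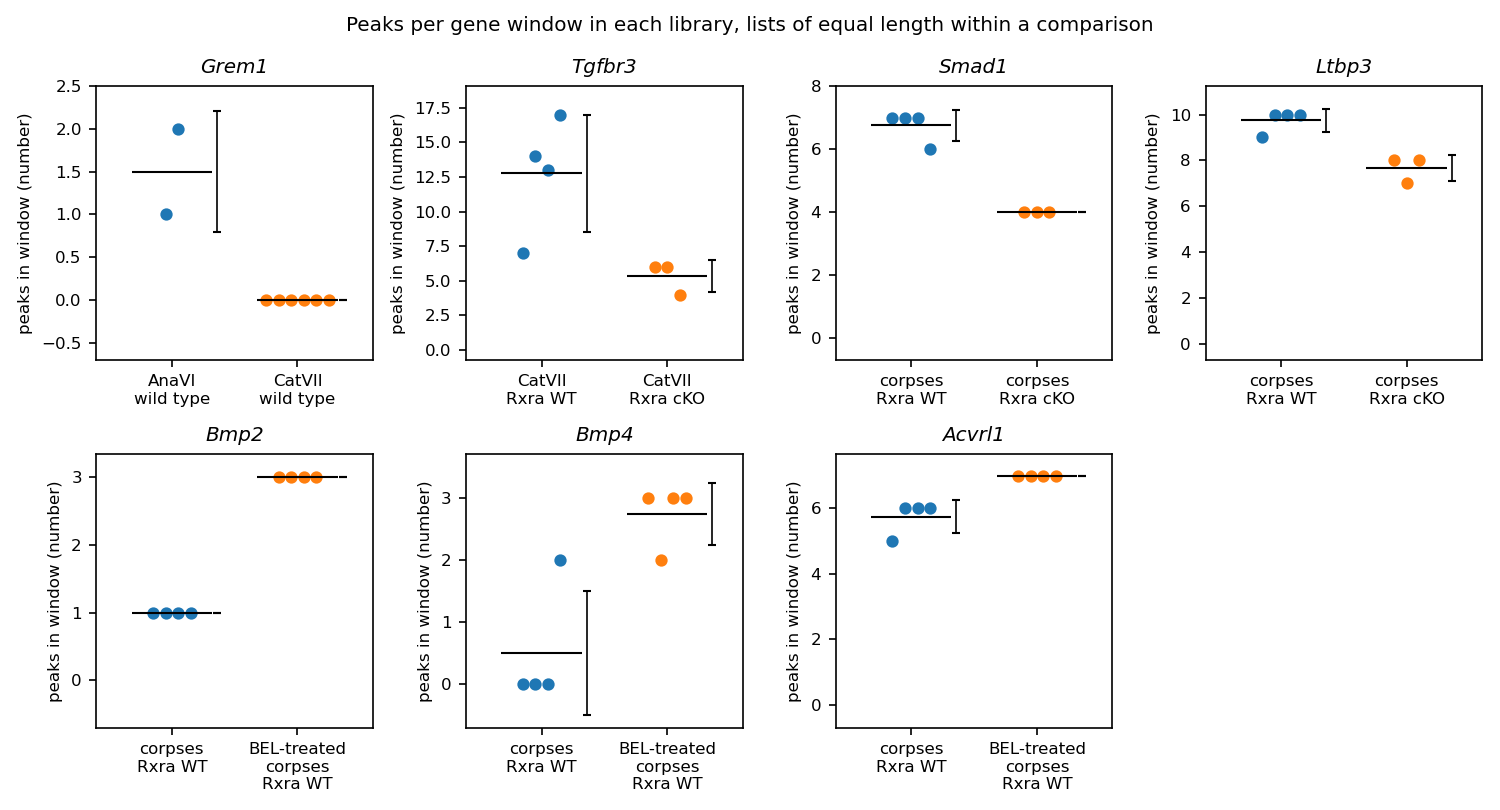
Peaks per window (number) of 7 genes in each library of the comparison named on the horizontal axis; points are libraries, bars the group mean and the whisker 1 SD. The groups do not overlap for Grem1, Tgfbr3, Smad1, Ltbp3, Bmp2 and Acvrl1, and touch at 2 peaks for Bmp4.

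BEL-treated corpses were compared with untreated corpses in Rxra WT HFSCs, at a list length of 63739. Of 245 member regions, 10 (4.08%) were specific to BEL-treated corpses, against 2.26% of all regions, and 1 (0.408%) to untreated corpses, against 0.716%. Of the 10, 3 lay at promoters of the members themselves, those of Bmp2, Bmp4 and Tmeff2. The others lay downstream of Bmp2, in introns of Tgfbr3, Smad3 and Smad7, in a coding exon of Bmpr2, and upstream of Id1 (13172 bp) and Tmeff1 (44247 bp). At the Bmpr2 exon the start of another protein-coding gene was 408 bp away, and at the Tmeff1 site that of Msantd3 was 76 bp away. The best-ranked was the Tmeff2 promoter (chr1:50965578-50967204, median rank 25196.5), which had a called peak in 2 of the 4 untreated libraries, the better at rank 67412. The region specific to untreated corpses was the Bmpr2 intron shown above, with a called peak in 2 of 4 BEL libraries. The Smad3 intron region overlapped the one specific to Rxra cKO under corpses, both set against the same 4 libraries.

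The Bmp2 window held 3 peaks in each BEL library and 1 in each untreated library. The groups did not overlap (exact permutation p = 0.0286, the smallest that 70 splits allow, adjusted p = 0.396). With all called peaks, as a share of each library, the exact permutation p was 0.0857, and in lists of 0.5 times the length the difference turned to −0.25 peaks. The peak present in all 8 libraries lay at −1885 to −1814 bp from the start. The added peaks were the promoter, with ranks of 43506, 51005, 52308 and 61115 in the BEL libraries, and a site 12474 to 12569 bp downstream of the start. In untreated replicates 3 and 4 the promoter was called too, at ranks 65962 and 67460, just past the end of the list. In untreated replicates 1 and 2 it was not called. Untreated replicates 3 and 4 carry the Phago tag and 1 and 2 the NonPhago tag. Among the BEL libraries the promoter was listed under both tags, and the part of the tag was not tested. The BMP2 ligand promotes quiescence of bulge cells, and its promoter was chosen for display after its values were seen, at chr2:133393879-133394078, which ends at the annotated transcript. The stretch is centred at an offset of −189 bp from the region's summit, which lies outside it, and it begins before the region does. Within these 200 bases none of the searched motifs was found, and the GC content is 79.5%.
Bmp2 promoter: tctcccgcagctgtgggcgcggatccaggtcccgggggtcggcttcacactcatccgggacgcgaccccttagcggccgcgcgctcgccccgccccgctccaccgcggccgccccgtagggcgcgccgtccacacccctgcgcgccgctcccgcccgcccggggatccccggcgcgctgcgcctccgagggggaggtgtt

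The Bmp4 window held 3, 2, 3 and 3 peaks in BEL libraries and 0, 0, 0 and 2 in untreated libraries, so that the groups touched at 2 (exact permutation p = 0.0571). The specific region, chr14:46624349-46625521, lay at an internal start of Bmp4. It had ranks from 37631 to 57237 in the BEL libraries, and called peaks below the list in 3 of 4 untreated libraries, the best at rank 64638. The stretch at chr14:46624786-46624985, chosen in the same way, has a GC content of 71% and none of the searched motifs.
Bmp4 promoter: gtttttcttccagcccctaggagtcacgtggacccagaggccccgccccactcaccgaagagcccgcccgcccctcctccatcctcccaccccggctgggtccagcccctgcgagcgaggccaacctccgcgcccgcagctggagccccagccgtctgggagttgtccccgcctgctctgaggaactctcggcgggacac

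**Figure D5:**
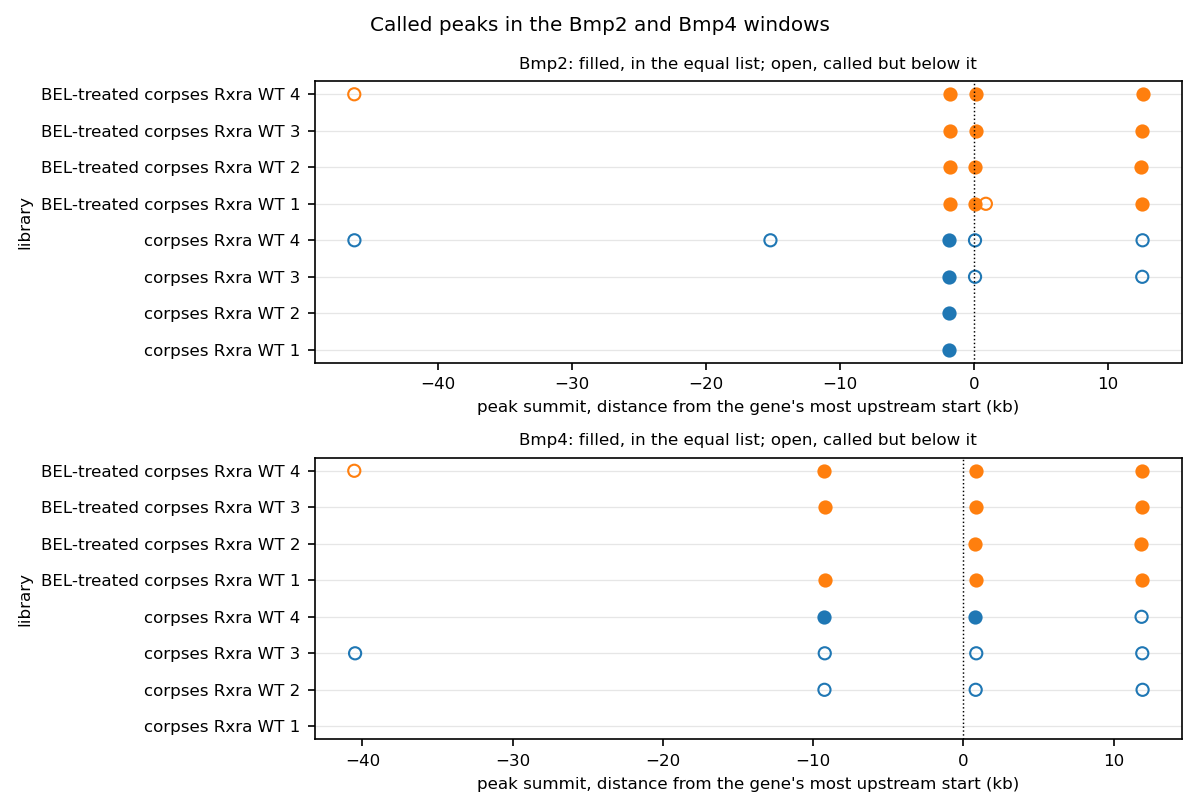
Called peaks in the windows of Bmp2 (top) and Bmp4 (bottom) in the 4 libraries with BEL-treated corpses (orange) and the 4 with untreated corpses (blue), at their distance in kb from the most upstream start of the gene; filled points are within the 63739 strongest peaks of the library, open points were called below that. Untreated replicates 3 and 4 show the Bmp2 promoter and downstream peaks as open points.

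The Acvrl1 window held 7 peaks in each BEL library and 5, 6, 6 and 6 in untreated libraries (exact permutation p = 0.0286, adjusted p = 0.396). In lists of 0.5 times the length it was not called, at a difference of 0.5 peaks. Bmp2 and Acvrl1 were the members with more peaks (2 of 38 tested, where 3.8% of all genes were so called), and 0 members had fewer (3.41%). With 4 libraries a group, absence of overlap gives the same calls. The Tgfbr3 window held 13, 12, 11 and 10 against 12, 13, 9 and 10, and the Smad3 window 17, 15, 16 and 18 against 11, 16, 14 and 18. The Smad7 window held 9, 11, 11 and 10 against 8, 9, 10 and 13, the Tmeff1 window 4 in each against 3, 4, 3 and 4, and the Tmeff2 window 8, 7, 9 and 8 against 8, 7, 9 and 7. The Id1 window held 11, 11, 13 and 12 against 8, 11, 12 and 12, and the Bmpr2 window 6, 7, 6 and 7 against 12, 9, 8 and 7. All of these overlapped. The median difference was 0.375 peaks over members and 0.0 over all genes. The shortest peak was 144 to 145 bp in the 4 BEL libraries and 60 to 104 bp in the 4 untreated ones. BEL-specific regions over the genome lay within 1 kb of a start in 35.5%, against 22.4% of regions tested and 6.07% of those specific to untreated corpses, and had a median width of 674 bp against 173 bp for the latter. The part of fragment length in the calls at the Bmp2, Bmp4 and Tmeff2 promoters was not tested.

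The other members had no region specific to a group and no exact p under 0.05 in any comparison. They were the ligands Bmp5, Tgfb1, Tgfb2, Inhba and Gdf10, the receptors Bmpr1b, Acvr2a and Acvr2b, Smad2, Smad4, Smad9 and Smad6, the antagonists Nog and Fst, and Id2 and Id4. The lowest p values among them included Smad6, with 3, 3, 4 and 3 peaks with BEL-treated against 5, 6, 5 and 4 with untreated corpses (exact permutation p = 0.0571), and Bmpr1b, with 18, 21 and 15 in cKO against 17, 11, 13 and 13 in Rxra WT under corpses (exact permutation p = 0.0857). The Fst window held 6, 4, 4 and 2 peaks with BEL-treated and 1, 2, 2 and 1 with untreated corpses (exact permutation p = 0.0857). The Id2 window held 5 or 6 peaks in the BEL libraries and 3 to 6 in the untreated ones, and the Smad2 window 3 in each BEL library and 3 to 5 in the untreated ones. Neither gene's groups were apart.

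A wider list of 76 other genes of the pathway was read in the same way. In CatVII against AnaVI, 3 of 75 regions (4.0%, against 4.92% of all regions) were specific to CatVII. They lay at Map3k7, which encodes the kinase TAK1, Zfyve16 and Trim33. To AnaVI, 6 were specific (8.0%, against 9.54%), led by Amhr2, Nedd4l and Inhbb. Between CatVII Rxra genotypes, 3 of 291 (1.03%, against 0.675% of all regions) were specific to cKO (Ltbp2, Acvr1b and Pmepa1). To Rxra WT, 3 were specific (1.03%, against 1.84%), at Bmp1, Tgfbi and Inha. Corpses against medium gave 8 of 30 (26.7%, against 20.7% of all regions) specific to corpses. They were led by Eng, which encodes the co-receptor endoglin, Acvr1b and Hes1. To medium, 0 were specific, against 11.4% of all regions. Under corpses, 11 of 451 (2.44%, against 3.61% of all regions) were specific to cKO, led by Gdf3 and Bmper. To Rxra WT, 14 were specific (3.1%, against 1.78%), led by Pmepa1, Gdf7 and Gdf15. With BEL-treated corpses, 11 of 398 (2.76%, against 2.26% of all regions) were specific, led by the SMAD co-repressor gene Ski, Bmp8a and Bmp1. To untreated corpses, 0 were specific, against 0.716% of all regions. By peaks per window, 3 of 58 had more and 5 fewer in CatVII than in AnaVI at an exact p under 0.05, against 4.06% and 4.88% of all genes. In catagen, 2 of 71 had more and 5 fewer in cKO than in Rxra WT, against 0.963% and 2.69%. Under corpses, 3 of 75 had more and 2 fewer in cKO, against 3.3% and 3.57%, and with BEL-treated corpses 3 of 73 had more and 1 fewer, against 3.8% and 3.41%.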

How the data were processed

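ATAC-seq peak lists of 34 libraries of mouse HFSCs were used. The authors used BWA to align the reads to mm39 and MACS3 to call peaks library by library, and the submitters' processing notes also name SAMtools and deepTools. The notes list BWA 0.7.18, MACS3 3.0.0, SAMtools 1.17 and 1.9 and deepTools 2.0.0, with no role for the versions. The deposited lists give for each peak a fold enrichment at the summit (a ratio), −log10 p and −log10 q, a score and the summit's offset in bases. They hold no read counts, so that no count test could be run and sequencing depth is unknown. All sample columns had a sample, leaving 0 unused.

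Peaks on the 19 autosomes, X and Y were ranked within a library by −log10 p, and lists were cut to the length of the shortest library of a comparison (8223 peaks for the 30 libraries outside medium and 4111 for all 34). Regions were made by merging peaks that shared 1 bp or more, and were tested when at least as many libraries as the smaller group had a peak. Summits were assigned to windows from 50 kb upstream to 5 kb downstream of gene bodies in GENCODE annotation of GRCm39. Peaks per window were compared by an exact two-sided permutation test with Benjamini-Hochberg adjustment over all genes with a listed peak. The steps were tested on simulated data. Alternatives comprised all called peaks, lists of 0.5 times the length, 10 kb upstream windows, matching by summits within 150 bp, a replicate block, libraries of 1 stored tag and leaving out each library. The members and lists were chosen with earlier results of these data known.

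Values per library are given for members with a group-specific region or an exact p under 0.05, and for the best-ranked promoter of each role. Sequences of 200 bases are given for the best-ranked specific region of each comparison and direction outside chromosome 18 and outside UTRs, and for a promoter open in every library outside medium, and those of Bmp2 and Bmp4 were added after their values were seen. Python 3.11.15, numpy 2.4.6, pandas 2.3.3, scipy 1.17.1 and matplotlib 3.10.9 were used.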

Additional observations from a re-analysis of the deposited data

Results flagged for a closer look

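Of 53 sets of 4 to 10 libraries examined for the named genes, 8 held a library farther from the others than Dixon's 95% critical value allows. The rate of 1 in 20 behind that value is for continuous measurements, and most sets were of genes already called in the same libraries. The 8 of 53 can therefore not be set against that rate. With so few peaks per window, a single library that differs by 1 peak from equal values is enough. In catagen, the Ltbp1 window of CatVII wild type replicate 6 held 2 peaks where the other 5 libraries held 0, and the Smad1 window of CatVII Rxra WT replicate 1 held 5 where the others held 9. Against medium, the Acvr1 window of corpses Rxra WT replicate 1 held 2 peaks and those of the others 1. In the comparison of corpses between genotypes, the Ltbp3 window of Rxra WT replicate 1 held 9 peaks where the others held 10, and the Smad1 window of replicate 4 held 6 where the others held 7. In the comparison with BEL-treated corpses, the Acvrl1 window of untreated replicate 1 held 5 peaks where the others held 6. The Bmp4 window held 2 peaks in BEL replicate 2, against 3 in the others, and 2 in untreated replicate 4, against 0 in the others.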

How the results depend on the processing

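Of 92 values recomputed under an alternative that kept all libraries or 1 stored tag, 51 were within 1.5 times the reported value, as were 109 of the 146 with a library left out. Of the 42 regions, 11 were still called with all called peaks, 33 with 10 kb windows, 5 in lists of 0.5 times the length and 34 by summits. The cause was not tested. With all called peaks, CatVII-specific regions numbered 1 and genes with more peaks in CatVII 1, Rxra WT-specific regions in catagen 2, with 1 gene up and 2 down in cKO, corpse-specific regions against medium 187, Rxra WT-specific regions under corpses 1 with 0 genes down, and BEL-specific regions 5, with 0 specific to untreated corpses and 1 gene down. In lists of 0.5 times the length, AnaVI-specific regions numbered 2, Rxra WT-specific 1 and cKO-specific 1 in catagen, corpse-specific 2 against medium, and cKO-specific 3 under corpses with 1 gene up; with BEL, 0 genes were up and 1 down, and the difference for Bmp2 reversed to −0.25. With 10 kb windows, AnaVI-specific regions numbered 2 and genes down under corpses 0. By summits, medium-specific regions numbered 1 and those specific to untreated corpses against BEL 5. With P42 libraries alone, Rxra WT-specific regions numbered 27 and cKO-specific 9. For culture against skin, a contrast and its alternatives chosen after seeing the data, genes with fewer peaks numbered 2 with all called peaks, 0 in lists of 0.5 times the length and 0 in the 30-library list, and genes with more numbered 1 in the former and 0 in the latter of these lists.

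The deviations of same-numbered libraries from their group means had correlations of −0.0389 to 0.103. All were positive, from 0.0284 to 0.103, between genotypes under corpses and with BEL. Together, the other comparisons held values of both signs, from −0.0389 to 0.0852. For untreated and BEL-treated corpses in Rxra WT, the stored tags also match by number. Such low values cannot tell whether the numbers pair the samples, and the tests treated the libraries as unpaired. With a replicate block, CatVII-specific regions numbered 5, with 7 genes up and 4 down; in catagen, cKO-specific regions numbered 1, with 1 gene up and 7 down; corpse-specific regions against medium numbered 12; under corpses 6 genes were up and 7 down in cKO; and with BEL 4 were up and 1 down.

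Leaving out a library can add regions but, by construction, removes none. The ranges for CatVII against AnaVI were 0 to 1 CatVII-specific and 4 to 11 AnaVI-specific regions (11 without AnaVI replicate 1, 9 without replicate 2), with 0 to 1 genes up and 1 to 3 down (3 without CatVII replicate 6, 2 without replicate 1). In catagen they were 0 to 15 cKO-specific and 6 to 16 Rxra WT-specific regions (15 and 12 without cKO replicate 1, 3 and 16 without Rxra WT replicate 1). Against medium they were 6 to 10 corpse-specific (10 without corpses replicate 1) and 4 to 14 medium-specific regions (14 without medium replicate 3, 9 without replicate 4). Under corpses they were 7 to 11 cKO-specific and 5 to 10 Rxra WT-specific regions (11 and 8 without cKO replicate 1, 11 cKO-specific without Rxra WT replicate 3, and 10 and 9 Rxra WT-specific without cKO replicate 3 and Rxra WT replicate 1). With BEL they were 10 to 14 BEL-specific and 1 to 2 specific to untreated corpses, with 2 to 3 genes up and 0 to 2 down (1 and 2 down without untreated replicates 3 and 4; 2 regions specific to untreated corpses without BEL replicate 1 or 4 or untreated replicate 1, 3 or 4). For culture they were 2 to 2 more and 1 to 2 fewer (2 without CatVII Rxra cKO replicate 1 or BEL replicate 3). Gene tests with a library left out were possible only for CatVII against AnaVI and for BEL, since the other designs cannot then reach 0.05.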
